A study of Arabidopsis thaliana with 4 samples.

Results

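The plastid genome of Arabidopsis thaliana carries a run of neighbouring genes from rpoA to rps19, and 7 of them are read here: rpoA, rpl36, rpl14, rpl16, rps3, rpl22 and rps19. They are 7 of the 69 plastid-encoded genes and of the 13356 genes in all that have a named probe set, the group of short oligonucleotides with which an Affymetrix ATH1 array reads a transcript. The members were chosen from ratios of these same arrays, of duf761-1 over NO and of Col-0 over NO, as well as by their place in the plastid genome. The values below therefore describe the 7 genes and test nothing about them. Each has 1 probe set, matched by its plastid gene ID, since mitochondria also encode genes named rps3 and rpl16.

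The samples were whole 2-week-old seedlings of 4 genotypes, with 1 array each. NO is the wild type of the Nössen cultivar. The duf761-1 mutant is also Nössen, its source is labelled RATM11-0975-1_H, and the series title calls it a knock-out. Col-0 is the Columbia-0 wild type, and OE6 is 1 transgenic line that overexpresses DUF761-1 in Columbia-0, with a promoter not given in the sources used here. DUF761-1 carries a domain of unknown function (DUF), and how many plants made up a sample is also not given. All 4 were grown on 1/2 MS medium with 2% sucrose at 22 °C, in days of 16 h light (100 µmol per m2 per s) and 8 h dark. The labels give no locus for DUF761-1, so its own level was not read as a check of the genotypes. With 1 array per genotype there is no replicate, no test and no error of the mean, so differences are given by size only. In whole seedlings, fewer plastids or plastid-rich cells and less plastid RNA per cell cannot be told apart.

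Plastids keep a small genome of bacterial descent. Many of its genes lie in clusters that are transcribed together into long RNAs and then cut into smaller ones, and the run from rpoA to rps19 corresponds in gene content to ribosomal protein operons of bacteria such as Escherichia coli. Plastid genes are read by a bacterial-type polymerase, whose core subunits the plastid encodes, and by a phage-type polymerase encoded in the nucleus. Photosynthesis genes depend largely on the first, and both take part at many genes of the expression machinery.

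All 7 genes had their lowest signal on the NO array, a higher one on duf761-1, a higher one again on Col-0 and the highest on OE6. Over the 4 arrays the span was smallest for rps19, at 4.77-fold, and widest for rpl36, at 26.4-fold. Among the other 60 plastid-encoded genes above the signal floor, 10 had this order of arrays, and among all 7994 genes above it, 654 did (8.18%). A lowest signal on NO was more common. It was seen in 36 of these 60 plastid-encoded genes and in 2130 of the 7994. The floor was a signal of 102, the 40th percentile of all 4 arrays together without their control probe sets. Lower signals were raised to it before ratios were taken, and a gene counts as above it when at least 1 array exceeded it.

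**Figure D1:**
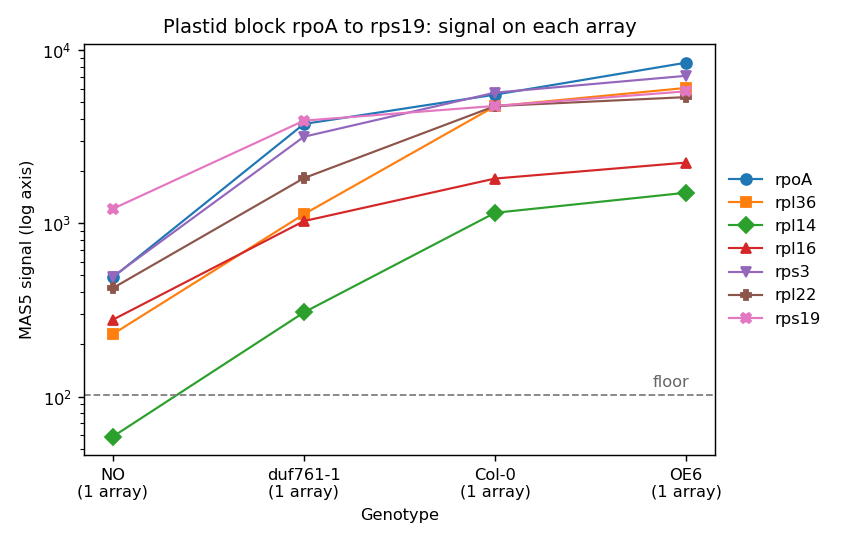
MAS5 signal (log axis) of the 7 block genes on the NO, duf761-1, Col-0 and OE6 arrays, 1 array per genotype, with lines joining the values of 1 gene and the floor of 102 dashed. Each gene climbs from NO to OE6, and rpl14 is below the floor on NO, at 58.7. Heights of different genes come from different probes and are not comparable.

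Genes are ordered here by position in the reference, and the direction of transcription was not used. In that order the first gene of the run, rpoA (gene ID 844727), encodes the alpha subunit of the bacterial-type plastid RNA polymerase. Its signal was 488 in NO, 3751 in duf761-1, 5539 in Col-0 and 8474 in OE6. The NO array stood far below the other arrays, at 5.76% of the OE6 signal, and the mutant array lay closer to Col-0 than to NO. It was 7.69-fold higher on duf761-1 than on NO, 11.4-fold higher on Col-0 than on NO, and OE6 exceeded Col-0 by 1.53-fold. In duf761-1 over NO no other of the 7994 genes above the floor had a higher ratio of floored signals, while 6 did when no floor was set.

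Of the small-subunit ribosomal proteins, rps3 (gene ID 844719) encodes the protein that in Escherichia coli lies where messenger RNA enters the ribosome. Its signal was 493 in NO, 3166 in duf761-1, 5690 in Col-0 and 7115 in OE6. This is close to the pattern of rpoA, with fold differences of 6.43 for duf761-1 over NO, 11.6 for Col-0 over NO and 1.25 in OE6 over Col-0. The other small-subunit gene, rps19 (gene ID 844720), encodes a protein of the head of the small subunit and lies at the far end of the run. Its signal was 1214 in NO, 3920 in duf761-1, 4768 in Col-0 and 5787 in OE6. It varied least of the 7, with 3.23-fold for duf761-1 over NO and 3.93-fold for Col-0 over NO, and of the 7 its mutant array was nearest to Col-0.

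Of the large-subunit proteins, rpl36 (gene ID 844725) encodes a very small one, and its signal was 229 in NO, 1130 in duf761-1, 4746 in Col-0 and 6057 in OE6. Both Columbia arrays were far above both Nössen arrays for this gene, with 20.7-fold for Col-0 over NO and 5.36-fold for OE6 over duf761-1, beside 4.93-fold for duf761-1 over NO. The rpl14 gene (gene ID 844723) encodes a protein that in Escherichia coli sits at the interface of the ribosomal subunits. Its signal was 58.7 in NO, 306 in duf761-1, 1151 in Col-0 and 1503 in OE6. Because NO was below the floor, rpl14 was at least 2.99-fold higher on duf761-1 and at least 11.3-fold higher on Col-0. With the floor at the 60th percentile its log2 ratio of duf761-1 over NO was 0.09, since the mutant signal then lies just above the floor.

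The rpl16 gene (gene ID 844722) encodes a large-subunit protein that in Escherichia coli contacts transfer RNA at the A site. Its signal was 278 in NO, 1031 in duf761-1, 1815 in Col-0 and 2244 in OE6. The gap between Col-0 and NO was smaller than for its neighbours, at 6.53-fold, beside 3.71-fold for duf761-1 over NO. The rpl22 gene (gene ID 844721) encodes a protein that lines the exit tunnel of the ribosome in Escherichia coli, and its signal was 423 in NO, 1825 in duf761-1, 4758 in Col-0 and 5360 in OE6. It was 4.31-fold higher on duf761-1 than on NO and 11.2-fold higher on Col-0 than on NO. OE6 exceeded Col-0 by 1.13-fold. The annotated ends of rps3 and rpl22 overlap in the reference table, so these neighbours are uncertain as fully separate readings.

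The duf761-1 mutant was compared with NO to see what differs when DUF761-1 is disrupted. All 7 genes were higher on the mutant array by 2-fold or more, with log2 ratios from 1.58 to 2.94 and a median of 2.11, though rps19 was at 0.83 and the median at 1.24 when arrays were scaled on the other plastid genes. Over all genes above the floor, 0.663% were at least 2-fold higher in this comparison. As the members were chosen on this ratio, nothing is read from that contrast. Of the other 60 plastid-encoded genes, 53 were higher on the mutant by any amount, 16 were at least 2-fold higher and their median was 0.55. Since rpl14 has only a bound here, the lowest measured member was rps19 at 1.69. Above it were 2 of the 60, with or without the floor: ndhH at 2.29, a subunit gene of the NADH dehydrogenase-like complex, and accD at 1.78, a gene of fatty acid synthesis.

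The 7 ratios also varied among themselves. Their SD was 0.51 on the log2 scale, with rpl14 at its bound. In 60 genes with 2 probe sets, where no array was below the floor for either, the SD of such a ratio was 0.28 per probe set, which covers measurement within an array but not differences between plants or labellings. Along the run, the ratio was highest at rpoA, was 2.30 at rpl36 and at least 1.58 at rpl14, and was 1.89 at rpl16. It was 2.68 at rps3, 2.11 at rpl22 and 1.69 at rps19. The highest ratios thus lay at rpoA and rps3, which are not next to each other.

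The Columbia and Nössen wild types form the backgrounds of the lines, and the 7 genes differed more between them than between mutant and wild type. All 7 were at least 2-fold higher on Col-0 than on NO, where 9.02% of all genes were, with log2 ratios from 1.97 at rps19 to 4.37 at rpl36 and a median of 3.49. The other 60 plastid-encoded genes had a median of 0.25, and 9 of them were at least 2-fold higher. With the floor set, none of the 60 had a ratio above that of rps19, but for rps16, a small-subunit ribosomal protein gene, this ratio is only a bound. Its signal was 51.2 in NO, below the floor, 153 in duf761-1, 340 in Col-0 and 516 in OE6. The log2 ratio of rps16 for Col-0 over NO was at least 1.73, and without the floor it was 2.73, which is higher than rps19. Of the genes measured above the floor on both arrays, the nearest was ndhH at 1.80. This comparison shares the NO array with duf761-1 over NO, so the ratios of a gene in both are not independent readings, and a low NO signal raises both.

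The comparison of OE6 with duf761-1 leaves out the NO array. Its log2 ratios follow by arithmetic from the other comparisons, and duf761-1 was in a ratio used to choose the members. Here 6 of the 7 genes were at least 2-fold higher on OE6, where 7.71% of all genes were, and the median log2 ratio was 1.18. The values ran from 0.56 at rps19 to 2.42 at rpl36, with rpl14 at 2.30 and rpl22 at 1.55. The genes rpoA, rps3 and rpl16 were close together at 1.18, 1.17 and 1.12, near the threshold, and 3 of the 7 passed it when arrays were set to a common median. The other 60 plastid-encoded genes had a median of -0.05, with 2 at least 2-fold higher. OE6 and duf761-1 differ in both cultivar and DUF761-1 genotype, and these cannot be told apart here.

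**Figure D2:**
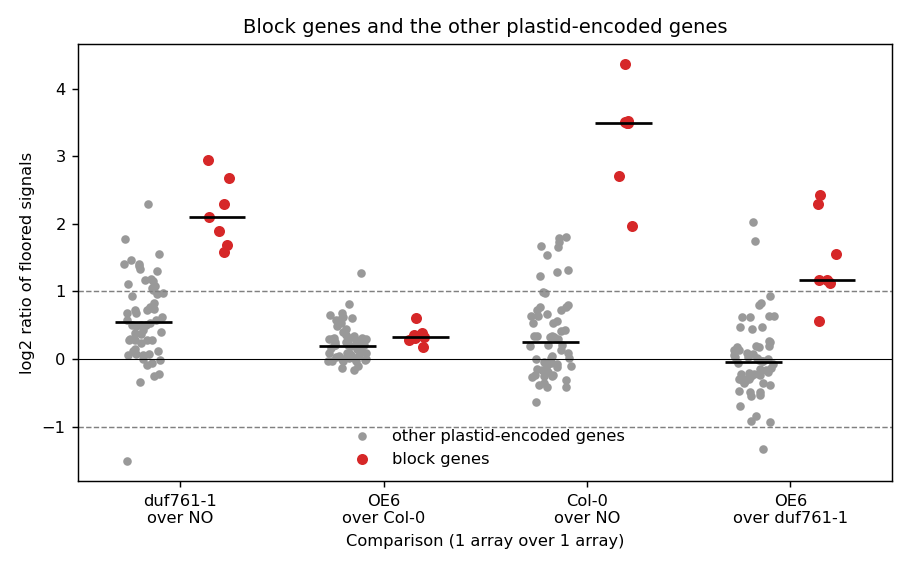
Log2 ratios of floored signals for the 7 block genes (red) and the other 60 plastid-encoded genes above the floor (grey) in 4 comparisons of 1 array with 1 array. Black bars are medians and dashed lines mark a 2-fold difference. The medians are 2.11 and 0.55 for duf761-1 over NO, 3.49 and 0.25 for Col-0 over NO, 1.18 and -0.05 for OE6 over duf761-1, and 0.32 and 0.20 for OE6 over Col-0.

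The overexpressor OE6 was compared with Col-0 to see what differs when DUF761-1 is raised. None of the 7 genes was 2-fold apart, where 0.475% of all genes were at least 2-fold higher. All 7 were higher on OE6 by some amount, from 0.17 at rpl22 to 0.61 at rpoA with a median log2 ratio of 0.32, where 44.8% of all genes were higher by any amount. The same held for 52 of the other 60 plastid-encoded genes, whose median was 0.20, and 34 of these 60 lay above rpl22. The members' SD here was 0.14, below the 0.24 per probe set of genes with 2 probe sets, so the 7 ratios cannot be ordered. The mutant and the overexpressor were thus both above their own wild type for these genes, by a median log2 ratio of 2.11 in 1 case and 0.32 in the other, and this difference was not tested. When arrays were scaled on the other plastid genes, the median for OE6 over Col-0 was 0.073 and rpl22 turned to -0.078, so 6 of the 7 were then higher on OE6.

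Where the mutant array fell between the wild types differed along the block. On the log2 scale, duf761-1 covered 85.7% of the way from NO to Col-0 for rps19, 84.0% for rpoA, 76.0% for rps3 and 69.9% for rpl16. It covered 60.4% for rpl22, 52.6% for rpl36 and 45.3% for rpl14, the last with NO set to the floor. Without the floor, the log2 ratios of rpl14 were 2.38 for duf761-1 over NO and 4.29 for Col-0 over NO. The place of rpl14 below rpl36 therefore rests on the floor. In genes with 2 probe sets, the SD per probe set was 0.28 and 0.42 for these ratios. Differences in share between the members were not tested. All 7 genes were lower on duf761-1 than on Col-0, as were 54.4% of all genes above the floor and 15 of the other 60 plastid-encoded genes. For ndhH, which was close to the block in duf761-1 over NO, the signal was 160 in NO, 782 in duf761-1, 557 in Col-0 and 782 in OE6. For accD it was 743, 2552, 1235 and 1420 in the same order of arrays. Both genes were therefore higher on the mutant than on Col-0, unlike the 7 members.

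The genes beside the block were read to see how far the pattern reached, and its edges could not be placed exactly. On the rpoA side the reference gene order runs psbB, psbT, psbN, psbH, petB and petD, genes of photosystem II and the cytochrome b6f complex, and none of these 6 was 2-fold apart in any of the 4 comparisons. The nearest with a strong signal was petB, which encodes cytochrome b6, at 19818 in NO, 21568 in duf761-1, 17326 in Col-0 and 19448 in OE6. These 4 arrays differed little, with log2 ratios of 0.12 for duf761-1 over NO and -0.19 for Col-0 over NO. Next to rpoA lies petD, which encodes subunit IV of the same complex, with signals of 137, 108, 73.1 and 108. They are at or near the floor, so petD carries little information on a ratio.

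The farther genes on that side had small differences. For psbB, the CP47 antenna protein of photosystem II, the log2 ratio of OE6 over Col-0 was 0.62, that of duf761-1 over NO 0.50 and that of Col-0 over NO 0.32. For psbT, a small photosystem II subunit, the values were 0.54, 0.75 and 0.20 in that order. These genes at the far end of the flank were higher on both lines than on their wild types. For psbH, also a photosystem II subunit, the values were 0.25, 0.06 and -0.15. For psbN, a factor in photosystem II assembly, they were 0.59, -0.22 and 0.01, from signals of 126 to 224. In OE6 over Col-0 the 6 genes thus overlapped the range of the block, with a median of 0.39. In Col-0 over NO they did not, with a median of -0.07 and a highest value of 0.32. The lowest member there, rps19 at 1.97, ranked 150 of the 7994 genes above the floor, so most other genes also lay below the block. As the members were chosen on this ratio, nothing is read from that gap.

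The reference gene order places rpl2 and rpl23 beyond rps19, and neither has a probe set with a single gene name here. Just past rps19, the numbers 244987_s_at and 244988_s_at belong to probe sets that each list 2 gene IDs and so carry no name here. The signal of 244987_s_at was 19571 in NO, 19177 in duf761-1, 16235 in Col-0 and 18748 in OE6. That of 244988_s_at was 13238, 17627, 12912 and 14418. Neither followed the block, with log2 ratios of -0.03 and 0.41 for duf761-1 over NO and of -0.27 and -0.04 for Col-0 over NO. These 2 probe sets were chosen after their values were seen.

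**Figure D3:**
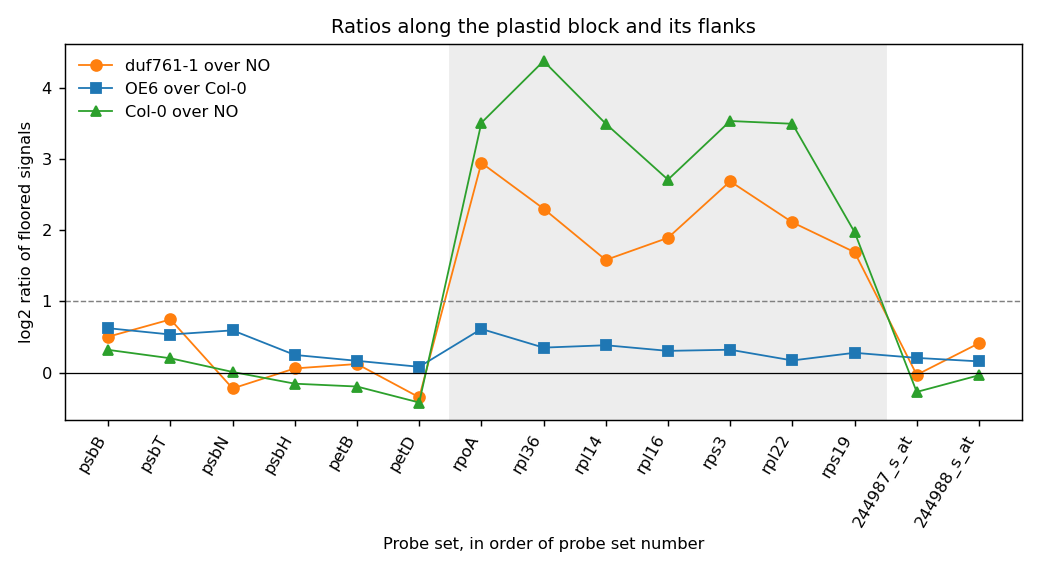
Log2 ratios of floored signals for the probe sets named in the text, in order of their numbers from psbB to 244988_s_at, in 3 comparisons of 1 array with 1 array, with the run from rpoA to rps19 shaded and a dashed line at 2-fold. Probe sets without a single gene name carry their number. Duf761-1 over NO and Col-0 over NO step up between petD and rpoA, from -0.35 to 2.94 and from -0.42 to 3.51, and step down after rps19, while OE6 over Col-0 stays between 0.08 and 0.62 throughout. The petD signals are at or near the floor. The nearest gene with a strong signal, petB, is at 0.12 for duf761-1 over NO and at -0.19 for Col-0 over NO.

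Other plastid genes of the expression machinery were set beside the block. Of 11 other ribosomal protein genes listed, 9 could be read by name, 8 of them above the floor, with median log2 ratios of 1.05 for duf761-1 over NO, 0.99 for Col-0 over NO and 0.42 in OE6 over Col-0. Of these 8, 4 were at least 2-fold higher on duf761-1: rps15 at 1.47, rpl33 at 1.31, rpl20 at 1.18 and rps2 at 1.11. Because its NO signal was below the floor, rps16 was at least 0.58 higher, and 1.58 without the floor. Their ratios of Col-0 over NO were 1.66, 1.79, 0.98 and 0.63, all below the 1.97 of rps19. The other subunits of the polymerase that contains the rpoA product, the beta-type subunits, had ratios of duf761-1 over NO of 1.38 for rpoC2, 1.17 for rpoC1 and at least 0.38 for rpoB. For rpoC1 the signal was 884 in NO, 1984 in duf761-1, 2076 in Col-0 and 3090 in OE6, and for rpoC2 it was 365, 950, 911 and 1085. In OE6 over duf761-1 the log2 ratio of rpoA was 1.18, that of rpoC1 0.64 and that of rpoC2 0.19.

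Beside the machinery, clpP, which encodes a protease subunit, had a ratio of duf761-1 over NO of 0.97, and matK, which encodes a splicing factor, one of 0.12. Of 31 genes for photosystems, cytochrome complex, ATP synthase, Rubisco and their assembly outside the flank, 6 were at least 2-fold higher on duf761-1 and 1 lower, with a median of 0.48. Those farthest from 0 were psbA, the photosystem II reaction centre gene, at -1.52, the photosystem I assembly genes ycf3 at 1.41 and ycf4 at 1.40, and the ATP synthase gene atpI at 1.16. For Col-0 over NO these 4 had ratios of 0.21, -0.11, 0.81 and -0.04. Of 9 genes of the NADH dehydrogenase-like complex above the floor, 3 were at least 2-fold higher on duf761-1, ndhH, ndhE at 1.56 and ndhA at 1.33, followed by ndhG at 0.72. For Col-0 over NO, ndhE had a ratio of 0.14, ndhA 1.29 and ndhG 0.29.

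Factors encoded in the nucleus could hardly be read by name. They were looked up by symbol, or by a synonym held by 1 gene only. An unmatched factor may still be on the array under another name or without one. In 4 lists of sigma factors and phage-type polymerases, polymerase-associated proteins, nucleus-encoded plastid ribosomal proteins and plastid RNA processing factors, 1 of 71 symbols was matched to a named probe set. This was RH39, a DEAD-box helicase of plastid ribosomal RNA processing, with signals of 769 in NO, 693 in duf761-1, 608 in Col-0 and 646 in OE6. Its log2 ratios, -0.15 for duf761-1 over NO and -0.34 for Col-0 over NO, were not those of the block.

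The genes most like the block over the 4 arrays were found by the root mean square difference between a gene's log2 profile, centred on its own mean, and the median profile of the 7 members. That median profile was -2.32 in NO, -0.01 in duf761-1, 1.01 in Col-0 and 1.35 in OE6. The members lay between 0.13 (rpl22) and 0.58 (rps19) from it, and with floored signals none of the other 6883 genes above the floor on at least 3 arrays was as near as rps19. Without the floor, 4 of them were nearer than rps19, which then lay at 0.66, and the nearest was rps16 at 0.36. All 4 of these had 1 array below the floor, as had rpl14 of the block, so their place rests on signals that low. Of these 4, rps16 was also nearer than the members rpl36 at 0.48 and rpl14 at 0.43, so it lay within the block's own spread. With floored signals the nearest were AT5G53880 at 0.59, AT5G39520 at 0.59, AT1G54410 at 0.60, MSRB5 at 0.60 and VPS24.1 at 0.60. These 5 are nuclear genes with lower signals on NO than on Col-0, such as VPS24.1 at 147 in NO, 315 in duf761-1, 636 in Col-0 and 621 in OE6, and their ratios of duf761-1 over NO, from 0.65 to 1.10, were all below the 1.69 of rps19. Of genes with a symbol, ETFBETA at 0.65, rps15 at 0.67 and rpl33 at 0.67 followed. The median profile was taken from the 7 members, which were chosen on these same arrays, so their nearness to it is partly built in. With 4 points per gene, this likeness is a description only.

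**Figure D4:**
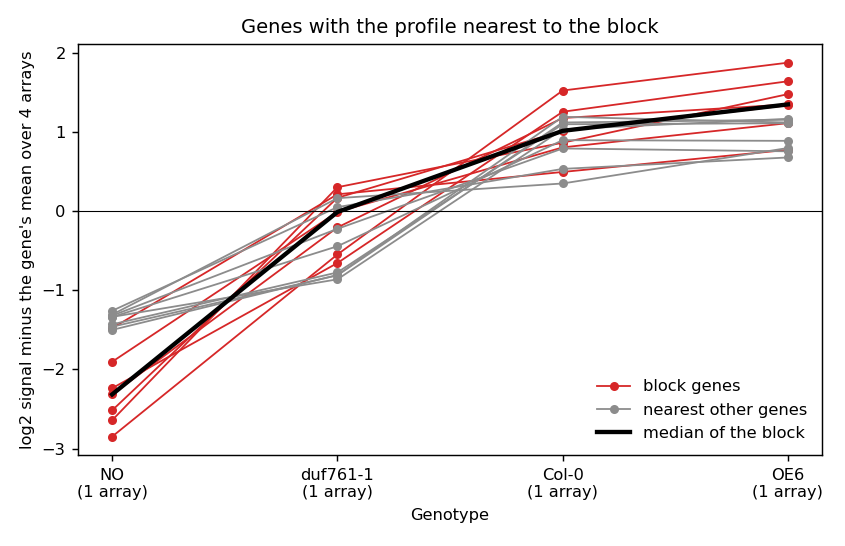
Log2 signal minus the gene's own mean over the 4 arrays, for the 7 block genes (red), their median (black) and the 8 nearest other genes named in the text (grey), 1 array per genotype. The block median lies at -2.32 in NO, below all 8 grey genes, and at 1.35 in OE6.

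Array-wide measures were close for most checks and differed between cultivars for 1. Between 58.3% and 61.6% of non-control probe sets were above the floor. RNA integrity can be gauged from control transcripts read near both ends, and the 3′ over 5′ signal ranged from 1.14 to 1.38 for GAPDH and from 2.58 to 2.72 for ubiquitin. For actin it was 1.66 in NO and 1.49 in duf761-1 but 7.52 in Col-0 and 9.84 in OE6, so it moved with the cultivar, as the block did in part, and its part in the block's values was not tested. ATH1 probes follow the Columbia sequence, and the effect of Nössen sequence differences on these 7 probe sets was not tested. Both duf761-1 over NO and OE6 over Col-0 lie within a cultivar, while Col-0 over NO and OE6 over duf761-1 cross cultivars.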

How the data were processed

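The authors deposited linear signal intensities per probe set. The submitters' processing notes name MAS5 for them, without a version. All 4 deposited arrays have the same mean of 500 after trimming 2% at each end. Per the labels' protocols, 6 µg of total RNA was labelled by the standard Affymetrix method. As background, that method primes on poly(A) tails, which most plastid RNAs lack, so a signal here need not follow total plastid RNA.

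Of 22810 probe sets, 64 are controls, 13513 list 1 gene, 503 list several and 8730 are unnamed here. Gene names and order came from a reference table of assembly TAIR10.1. The files name no build, so no coordinates are given, and no sequence is printed. A gene was read by its probe set with the highest mean log2 signal. Signals were floored at the 40th percentile and log2 ratios taken. Named genes were all members, the flanking genes, up to 4 per list by the ratio of duf761-1 over NO, and the nearest 5 by profile. Members and lists were chosen with earlier results of these data known. Python 3.11.15, numpy 2.4.6, pandas 2.3.3 and statsmodels 0.14.6 were used. The alternatives were other scalings, floors, a pseudocount, probe set averaging and a 3-fold threshold.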

Additional observations from a re-analysis of the deposited data

How the results depend on the processing

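No paired analysis was possible because each genotype has 1 array. The median log2 ratio of the 7 genes kept its sign in all 4 comparisons and under all alternatives: 1.24 to 2.30 for duf761-1 over NO, 0.073 to 0.32 for OE6 over Col-0, 3.08 to 3.90 for Col-0 over NO and 1.00 to 1.44 for OE6 over duf761-1. The number at least 2-fold higher was 7 throughout for Col-0 over NO and 0 throughout for OE6 over Col-0. For duf761-1 over NO it was 6 or 7. For OE6 over duf761-1, where the main count is 6, it was 3 with arrays set to a common median and 2 at 3-fold. Scaling on the median of the other plastid genes gave 1.24 for duf761-1 over NO, with rps19 at 0.83, and 0.073 for OE6 over Col-0, with rpl22 at -0.078. The same after centring each gene, chosen after seeing the data, gave 1.53 for duf761-1 over NO and put rpl22 at -0.041 for OE6 over Col-0. By construction these scalings take out the shift shared by plastid genes. Of 308 values for single genes, 276 moved by less than the SD per probe set, 30 moved further and 2 reversed. Part of the 276 could not move. Each of the 7 genes has 1 probe set, so averaging probe sets changed nothing. A lower floor or none could change only rpl14. The count therefore overstates how stable the values are. Spike-in scaling with 18 probe sets shifted the median of all genes by 0.38 for Col-0 over NO and 0.24 for OE6 over duf761-1, and a common median by -0.12 and -0.11. Scaling on the other plastid genes shifted it by -0.81 for the mutant over NO, by -0.38 between the wild types, by -0.24 for OE6 over Col-0 and by 0.13 in OE6 over duf761-1. Among the other plastid genes, 3 had an array below the floor. Low signal limits rpl14 on NO, below the floor: its log2 ratio of duf761-1 over NO ran from 0.09 to 2.38.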
